A study of Homo sapiens with 6 samples.

Results

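The genes described are those of the nuclear pore complex and of mRNA export. Members were taken from the deposited gene table by symbol: NUP or THOC followed by a number, and 13 genes listed by name (TPR, NXF1, NXT1, POM121, RANBP2, SEH1L, SEC13, RAE1, AAAS, NDC1, XPO1, XPO5 and RAN), with pseudogenes and antisense genes left out. This gave 41 of the 32679 genes in the table. NUP42, which the table lists under its former symbol NUPL2, and POM121C, a close copy of POM121, are not covered by the rule and were read with the other export genes. RNA-seq was performed on poly(A) RNA of HEY cells, an ovarian cancer line, stably carrying a control hairpin (shNC, 3 samples) or a hairpin against the splicing factor PQBP1 (shPQBP1, 3 samples). All 6 samples carry the label day 3. By their labels the shPQBP1 samples received doxycycline at 1 µg ml−1, which induces the hairpin, and the shNC samples received no treatment, so that hairpin and doxycycline cannot be told apart. The labels give 1 hairpin against PQBP1 and do not say whether the lines are clones. The deposited values are FPKM, a fragment count scaled by transcript length and library size, and carry no read counts, so the depth behind them is unknown. In bulk RNA, fewer cells of a type and less RNA per cell cannot be told apart.

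The nuclear pore is the channel through which RNA and protein pass the nuclear envelope. Its scaffold is made of an outer ring built from Y-shaped complexes and an inner ring, it is held in the membrane by anchor proteins, and its channel is filled by nucleoporins rich in phenylalanine-glycine repeats. A basket reaches into the nucleus and filaments into the cytoplasm. mRNA is packaged during transcription and splicing by the THO complex and its partners, is handed to the NXF1-NXT1 receptor and leaves through the pore, whereas exportins and importins depend on the small GTPase RAN.

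PQBP1 itself stood at 7.18, 6.67 and 6.93 FPKM in shNC and at 1.68, 1.72 and 1.44 in shPQBP1 cells (log2 fold change -2.04, limma adjusted p = 0.00154). The summed FPKM of all genes lay between 278285.8 and 318484.3 per sample, and 26.5% to 29.8% of the genes were listed at 0. Of the ovarian and epithelial markers, KRT7, KRT8, KRT18 and PAX8 were present (12.3 to 94.6 FPKM), whereas MUC16, ESR1 and WT1 stayed under 1 FPKM in every sample and EPCAM lay between 0.79 and 1.13. KRT19 lay between 1.19 and 2.1 FPKM. The mesenchymal markers VIM (1111.87 to 1342.76 FPKM), CDH2 (20.34 to 24.32) and FN1 were present, with FN1 at 42.51 to 44.57 in shNC and 127.42 to 154.68 in shPQBP1 samples. Of the endothelial markers, CDH5 lay between 2.11 and 3.64 FPKM, and PECAM1 and VWF stayed under 1. PTPRC, the pan-leukocyte marker, was at 0 throughout, and CD14 reached at most 0.15.

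Of the 41 genes, 39 had a mean FPKM of at least 1 and were tested on the log2(FPKM + 0.1) scale (limma, two-sided, Benjamini-Hochberg adjustment over the 11413 genes that passed this filter). NUP62CL, a paralog of NUP62, stayed between 0.6 and 0.93 FPKM. NUP210L, a paralog of NUP210, was listed at 0 in 2 shNC samples and at no more than 0.04 in any other. Upon PQBP1 knockdown, 2 of the 39 genes changed at an adjusted p under 0.05, RAN and NUP210, and both fell. This is 5.13% of the genes, against 2.91% of all genes tested. At an unadjusted p under 0.05, NUP85, NUP88 and NXF1 were also lower, in all 5 of 39 (12.8%, against 11.7% of all genes), and NUP214 was higher, 1 of 39 (2.56%, against 11.9%). None of the 39 passed a fold change over 2 together with an unadjusted p under 0.05 in limma, against 1.52% of all genes. The log2 fold change was within 0.25 of zero in 25 of the 39, and its median was 0.05, against 0.02 over all genes tested. Of the 39 log2 fold changes, 22 were above 0 and 17 below.

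**Figure D1:**
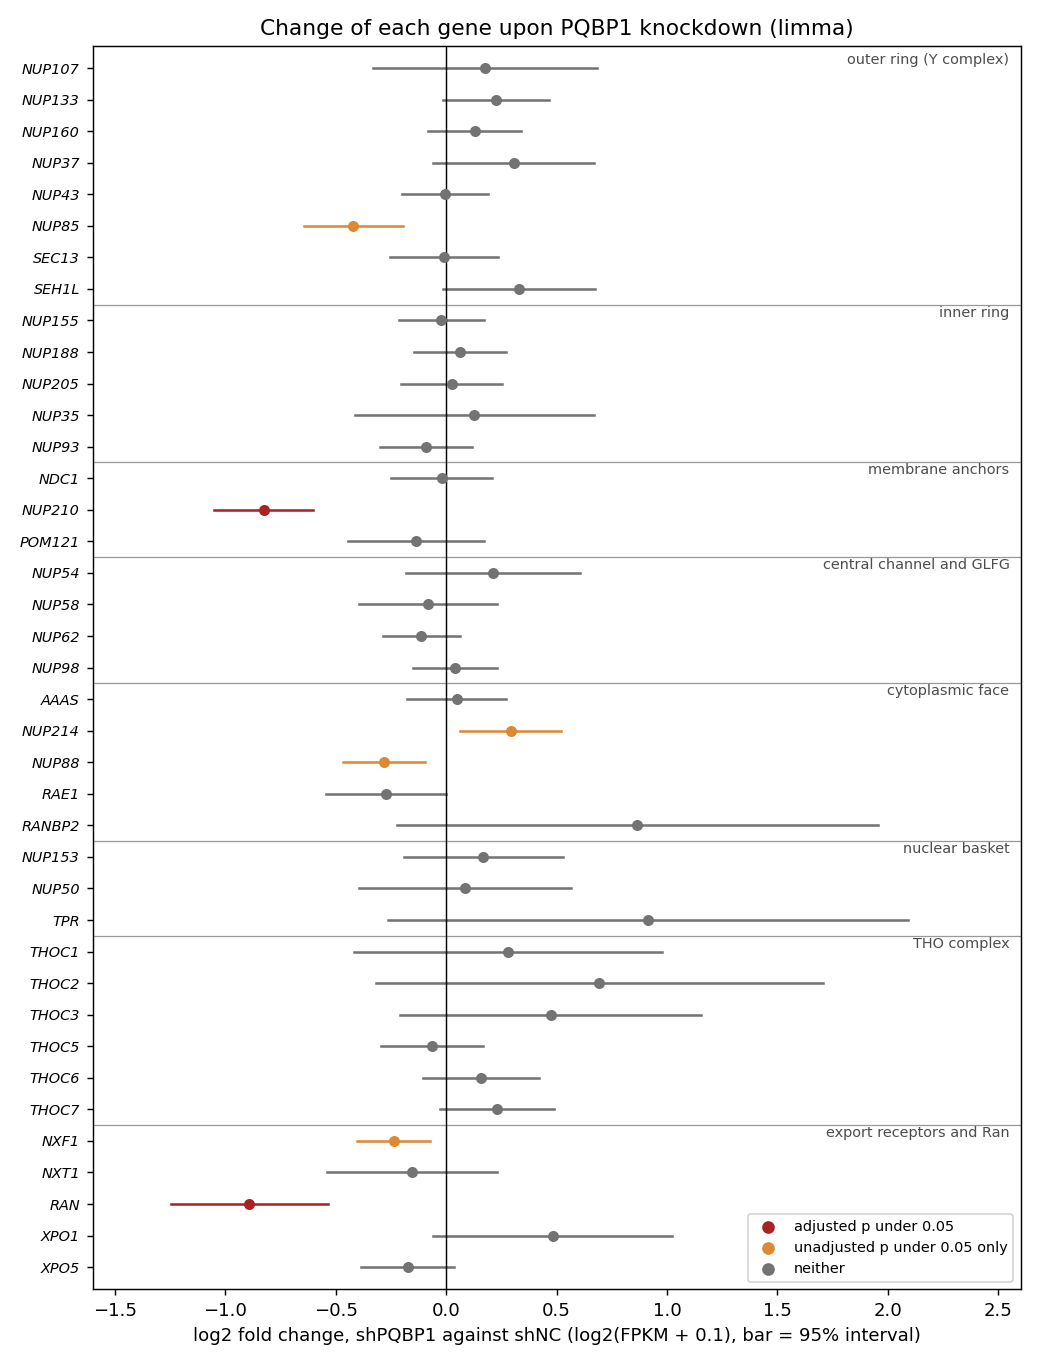
log2 fold change of each of the 39 tested genes, shPQBP1 against shNC, on the log2(FPKM + 0.1) scale, with its 95% interval from limma (n = 3 samples per group), ordered by the part of the pore or export pathway. RAN (-0.89) and NUP210 (-0.83) stand to the left of zero, the inner ring sits close to zero, and the intervals of TPR, RANBP2 and THOC2 are wide.

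The upstream sequences of RAN and NUP210 are shown because these are the 2 genes called. Each is the 250 bases before the RefSeq start site (GRCh38.p14), 5′ to 3′ on the gene's strand, with GC boxes (GGGCGG on either strand, where neighbouring matches may overlap) in capitals. RAN lies on the plus strand at chr12:130871816-130872065 and NUP210 on the minus strand at chr3:13420323-13420572.
RAN: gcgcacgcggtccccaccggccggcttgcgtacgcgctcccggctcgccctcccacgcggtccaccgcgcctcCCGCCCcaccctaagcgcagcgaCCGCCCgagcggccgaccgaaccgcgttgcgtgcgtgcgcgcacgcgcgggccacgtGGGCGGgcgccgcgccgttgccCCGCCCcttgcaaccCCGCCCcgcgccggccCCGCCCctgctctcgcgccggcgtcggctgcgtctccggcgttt
NUP210: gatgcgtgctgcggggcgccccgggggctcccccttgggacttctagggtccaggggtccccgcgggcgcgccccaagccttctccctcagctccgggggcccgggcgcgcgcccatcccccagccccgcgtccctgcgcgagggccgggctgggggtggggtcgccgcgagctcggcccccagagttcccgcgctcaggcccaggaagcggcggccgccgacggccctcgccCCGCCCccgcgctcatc

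The RAN sequence held 6 GC boxes and 1 E-box (CACGTG), and the NUP210 sequence held 1 GC box. Their GC contents were 81.2% and 80.8%. A GC box was found in 42.6% of the 35116 promoter windows in the table and in 24 of the 39 member genes with a window (61.5%). The E-box was found in 6.34% of all windows and in NUP188, NUP50, RAN and XPO1. The core of the ETS site, CCGGAA, was in 14.5% of all windows and in 17 of the 39 member genes (43.6%), but not in RAN or NUP210, and the CCAAT box was in 32% and in 14 genes. The windows were not limited to genes expressed in these cells, as most members are, so these shares compare unlike sets.

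RAN (ENSG00000132341) lies on chromosome 12 of hg38 from 130872037 to 130877678, and its GTP-bound form loads exportins in the nucleus and releases cargo from importins. It reached 104.92, 130.02 and 109.06 FPKM in shNC cells, against 73.4, 60.61 and 52.38 in shPQBP1 cells. The lowest shNC sample was above the highest shPQBP1 sample. The mean fell from 115 ± 13.5 to 62.1 ± 10.6 FPKM (SD, n = 3 each), to 54.2% of the control level. On the log2 scale RAN fell by 0.89 (standard error 0.15, limma adjusted p = 0.0349). With any 1 of the 6 samples left out, the log2 fold change stayed between -1.02 and -0.77, but the adjusted p was no longer below the threshold (0.05 to 0.129). The call was also lost when every gene above 0 in at least 1 sample was tested (adjusted p = 0.0758). The table also lists RANP1, a processed copy of RAN, at 7.46, 6.41 and 6.38 FPKM in the shNC samples and at 6.94, 7.63 and 8.63 in the shPQBP1 samples. The values of RANP1 overlapped between the groups, and how reads were divided between RAN and its copies was not tested.

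NUP210 (ENSG00000132182), on chromosome 3 from 13316235 to 13420322, encodes a membrane glycoprotein that forms a ring around the pore in the lumen of the nuclear envelope. It reached 7.59, 6.87 and 6.48 FPKM in shNC cells, against 3.77, 3.85 and 4.04 in shPQBP1 cells, with no overlap between the groups. The mean fell from 6.98 ± 0.563 to 3.89 ± 0.139 FPKM (SD, n = 3 each), to 55.7% of the control level, or by 0.83 on the log2 scale (standard error 0.09, limma adjusted p = 0.0154). Leaving out shNC sample 1 kept the call (limma adjusted p = 0.0161), whereas leaving out any of the other samples lost it (0.051 to 0.0842), with log2 fold changes from -0.88 to -0.77. The other membrane anchors did not pass the test. NDC1, which helps to recruit nucleoporins to the membrane, had 25.4 ± 2.69 FPKM in shNC and 24.9 ± 0.239 in shPQBP1 cells (log2 fold change -0.02, 95% interval -0.25 to 0.21). POM121 had 6.12 ± 0.385 and 5.59 ± 0.831 FPKM (95% interval -0.45 to 0.17), and reads shared with POM121C may be divided between these copies.

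**Figure D2:**
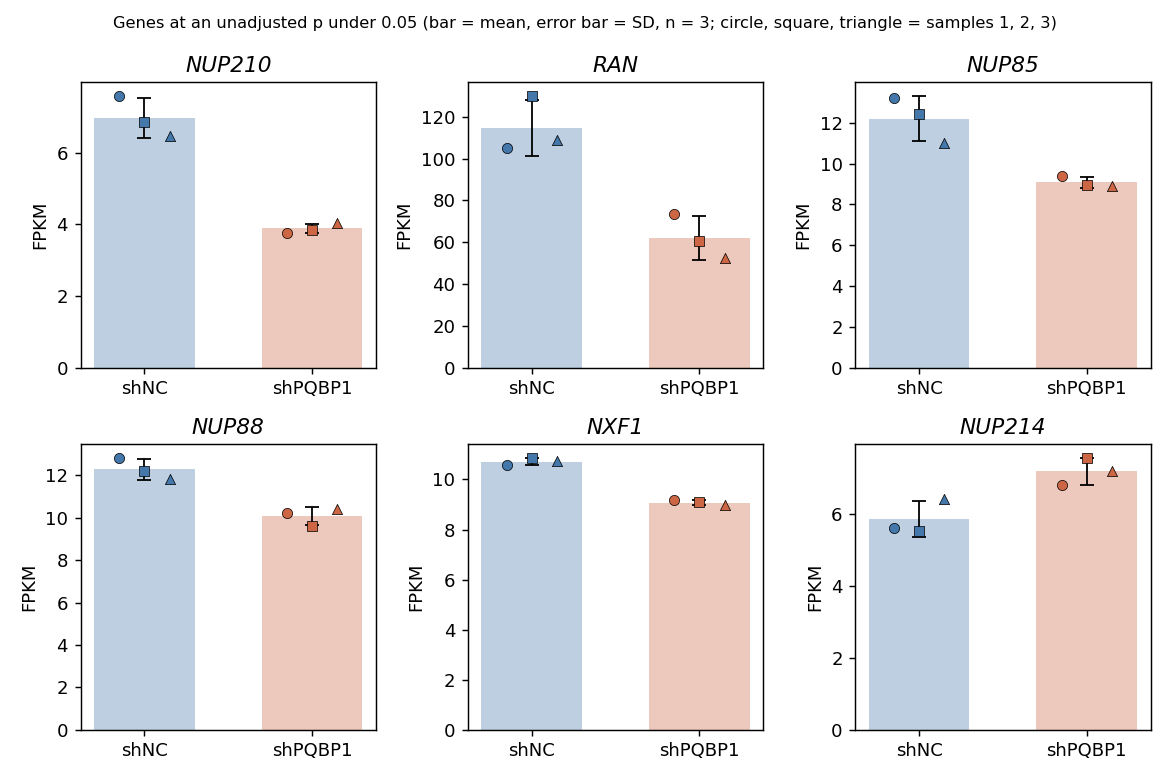
FPKM of the 6 genes with an unadjusted p under 0.05 in limma, on axes that start at 0, with the mean as a bar, the SD as an error bar and the 3 samples of each group as points. In each of the 6 genes the groups are separate, with shPQBP1 below shNC for NUP210, RAN, NUP85, NUP88 and NXF1 and above it for NUP214.

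Among the 8 genes of the outer ring, only NUP85 passed an unadjusted p of 0.05. NUP85, which binds SEH1L in the short arm of the Y complex, had 13.2, 12.43 and 11.01 FPKM in the shNC samples and 9.38, 8.96 and 8.9 in the shPQBP1 samples. The groups did not overlap, and the shPQBP1 mean was 74.3% of the shNC mean (log2 fold change -0.42, standard error 0.09, adjusted p = 0.068 from limma, 0.0566 to 0.258 over the alternatives). Its partner SEH1L lay on the other side, with 4.58, 4.85 and 4.66 FPKM in shNC and 7.32, 5.19 and 5.5 in shPQBP1 samples, again without overlap. The highest value was that of shPQBP1 sample 1, and SEH1L missed the threshold (log2 fold change 0.33, unadjusted p = 0.0561 in limma across all genes). NUP133, NUP160 and NUP37 were likewise higher in each shPQBP1 sample than in any shNC sample, by 9.49% to 22.4% in the means, and none passed the test. NUP107, NUP43 and SEC13 overlapped between the groups, with log2 fold changes of 0.18, -0.00 and -0.01. The log2 fold changes within the Y complex thus ran from -0.42 to 0.33. Once each sample's trend on GC content and length was removed (below), NUP133 went from 0.23 to 0.15, NUP160 from 0.13 to 0.02 and NUP37 from 0.31 to 0.11. In that fit SEH1L was at 0.34 and NUP85 at -0.33.

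In the inner ring the log2 fold changes ran from -0.09 for NUP93 to 0.13 for NUP35, which was at -0.11 without shNC sample 1. NUP205 and NUP188, large scaffold proteins that bind NUP93, had log2 fold changes of 0.03 (95% interval -0.20 to 0.25) and 0.06 (-0.14 to 0.27). For NUP155 the interval ran from -0.21 to 0.17, so that these data leave room for changes of that size. NUP35 had the lowest level of the ring, 2.25 ± 0.648 FPKM in shNC cells.

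The repeat-rich nucleoporins of the channel did not pass the test either. NUP98, which binds RAE1 and whose precursor also yields the scaffold protein NUP96, had 18.11, 19.87 and 17.63 FPKM in the shNC samples and 18.63, 18.81 and 19.66 in the shPQBP1 samples. These values overlapped, with a log2 fold change of 0.04 (95% interval -0.15 to 0.23). NUP62, NUP54 and NUP58, which form the central channel complex, had log2 fold changes of -0.11, 0.21 and -0.08. Without shNC sample 1, NUP54 was at 0.04 and NUP58 at -0.22, where NUP58 had an unadjusted p of 0.0164 in limma across all genes. NUP62 was lower in every shPQBP1 sample (17.38 to 18.59 FPKM) than in any shNC sample (18.75 to 19.89). Once each sample's trend on GC content and length was removed (below), the log2 fold change of NUP62 was 0.03, with the sign reversed.

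On the cytoplasmic face, 2 proteins that bind each other showed opposite signs. NUP88 had 12.82, 12.19 and 11.82 FPKM in the shNC samples and 10.24, 9.62 and 10.39 in the shPQBP1 samples, 82.1% of the control mean without overlap (log2 fold change -0.28, standard error 0.08, adjusted p = 0.107 from limma). NUP88 shares its locus with RABEP1 and RPAIN on the opposite strand, and the strand setting of the counting is not given in the sources used here. The same limit holds for THOC1 with USP14, NUP43 with PCMT1, THOC6 with HCFC1R1, NUP62 with ATF5, POM121 with NSUN5P2 and XPO5 with POLR1C, and THOC5 overlaps NIPSNAP1 on its own strand. NUP214, the partner of NUP88 and a docking site for export complexes, had 5.62, 5.52 and 6.42 FPKM in the shNC samples and 6.81, 7.55 and 7.19 in the shPQBP1 samples. These groups were separate too, at 123% of the control mean (log2 fold change 0.29, standard error 0.09, adjusted p = 0.142 from limma). RAE1, an mRNA export factor, was lower in every shPQBP1 sample (10.65 to 12.95 FPKM) than in any shNC sample (13.33 to 15.9), with an unadjusted p of 0.0503 in limma across all genes. AAAS differed by less than the spread between samples, 8.49 ± 0.79 against 8.76 ± 0.202 FPKM.

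TPR, the coiled-coil filament protein of the nuclear basket, and RANBP2, the main component of the cytoplasmic filaments, had the largest positive log2 fold changes, 0.92 and 0.87, but neither passed the test (adjusted p = 0.293 and 0.285 from limma). TPR had 3.34, 13.04 and 8.48 FPKM in the shNC samples and 17.43, 11.16 and 13.08 in the shPQBP1 samples. RANBP2 had 3.03, 10.36 and 7.74 FPKM in the shNC samples and 14.26, 9.26 and 11.47 in the shPQBP1 samples. In both genes the groups overlapped, and shNC sample 1 was far below the other samples. Without this sample the log2 fold changes were 0.37 for TPR and 0.36 for RANBP2. The other basket proteins NUP153 and NUP50 had log2 fold changes of 0.17 and 0.09, and of 0.01 and -0.13 without shNC sample 1. Near copies of RANBP2 (the RGPD genes) are listed at 0 to 2.23 FPKM, and reads may be divided among them.

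A low value in shNC sample 1 recurred across the list. This sample was the lowest of the 6 for 18 of the 39 genes and the highest for 12. The shares over all genes tested are not given here, so these counts are not read as a trait of the list. Relative to the other shNC samples, shNC sample 1 was over 1 log2 unit lower for TPR (-1.63), RANBP2 (-1.53) and THOC2 (-1.41). Across the 39 genes, this difference followed the GC content of the transcript (Spearman's rho = 0.683, and 0.613 across 11385 tested genes, from a shared library and without independent points). The log2 fold change between the groups followed GC content as well (rho = -0.476 for the 39 genes and -0.459 for the 11385), less so without shNC sample 1 (-0.187 and -0.236). The 39 genes had a median transcript length of 4552 bases and a GC content of 44.4%, against 2981 bases and 47.5% for all genes tested. RAN has 40.2% GC and NUP210 58.4%. After the trend on GC content and length was removed from each sample, the log2 fold change was -1.04 for RAN (adjusted p = 0.0108 from limma), -0.71 for NUP210 (adjusted p = 0.0056) and -0.35 for NUP88 (adjusted p = 0.0422), the 3 genes called in that fit. At an unadjusted p under 0.05 that fit added NDC1 (-0.25), NUP58 (-0.24), RAE1 (-0.21), XPO5 (-0.16) and AAAS (0.22) and lost NXF1. Over all genes, the same fit called 938 of 11385 at an adjusted p under 0.05 in limma. At an unadjusted p under 0.05, 27.6% of all genes passed in it, and 10 of the 39 members.

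**Figure D3:**
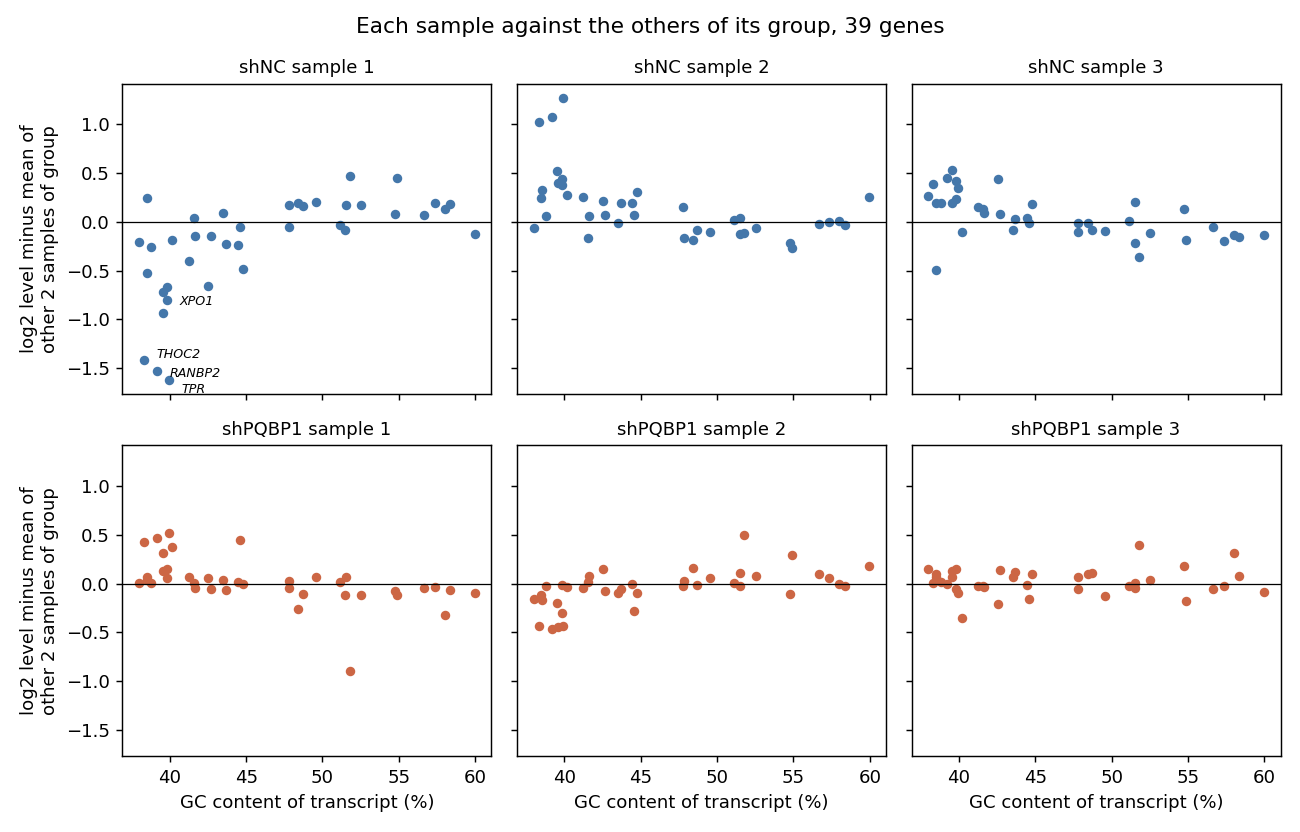
Each point is 1 of the 39 genes: the log2(FPKM + 0.1) level in a sample minus the mean of the other 2 samples of its group, against the GC content of the transcript in percent. In shNC sample 1 the genes of low GC content lie below zero, down to -1.63 for TPR, shPQBP1 sample 2 shows a weaker slope of the same sign in the plotted values, and shNC samples 2 and 3 and shPQBP1 sample 1 slope the other way. By construction the values of a gene cancel within a group, so a slope in 1 sample forces an opposite net slope in the others.

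The THO complex, which joins nascent mRNA and recruits export adaptors, had no member past the test. THOC2, its scaffold, had 2.19, 6.97 and 5.16 FPKM in the shNC samples and 8.57, 5.72 and 7.04 in the shPQBP1 samples, and its log2 fold change dropped from 0.69 to 0.22 without shNC sample 1. THOC3 had 22.17, 16.96 and 15.1 FPKM in shNC and 16.34, 31.25 and 29.9 in shPQBP1 samples, so that shPQBP1 sample 1 lay within the control range and the other shPQBP1 samples above it (adjusted p = 0.335 from limma). THOC1, THOC6 and THOC7 had log2 fold changes of 0.28, 0.16 and 0.23, and THOC5 of -0.06, with THOC1 at -0.03 without shNC sample 1. After the GC and length correction THOC1 was at 0.11, THOC6 at 0.36, THOC7 at 0.01 and THOC5 at -0.04.

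Of the export receptors, NXF1 and XPO1 lay on opposite sides. NXF1, the receptor of bulk mRNA, had 10.56, 10.84 and 10.75 FPKM in the shNC samples and 9.17, 9.09 and 8.97 in the shPQBP1 samples. Both groups were narrow and clearly apart, at 84.7% of the control mean (log2 fold change -0.24, standard error 0.07, adjusted p = 0.118 from limma). After the GC and length correction the log2 fold change of NXF1 was -0.15 and its unadjusted p in limma across all genes was 0.13. Its partner NXT1 had 17.12, 12.22 and 12.75 FPKM in shNC and 11.83, 14.28 and 11.45 in shPQBP1 samples, with overlap. XPO1, the exportin for proteins with leucine-rich signals and for some RNAs, had 13.33, 23.06 and 23.52 FPKM in the shNC samples and 27.84, 26.91 and 26.41 in the shPQBP1 samples. Each shPQBP1 sample of XPO1 was above each shNC sample, with a log2 fold change of 0.48 that was 0.22 without shNC sample 1 (adjusted p = 0.247 and 0.0956 from limma). XPO5, which exports microRNA precursors, was lower in each shPQBP1 sample (10.49 to 11.61 FPKM) than in any shNC sample (11.94 to 13.43), with an adjusted p of 0.271 from limma.

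Counted over the list, the groups did not overlap in 8 of 39 genes with shPQBP1 below (NUP210, NUP62, NUP85, NUP88, NXF1, RAE1, RAN and XPO5, 20.5%) and in 6 with shPQBP1 above (NUP133, NUP160, NUP214, NUP37, SEH1L and XPO1, 15.4%). Over all genes tested the shares were 17.1% and 17.3%, so that the list lay near the background in both directions. A two-sided exact permutation test of 3 samples against 3 gives p = 0.1 for each of these 14 genes, the smallest it allows.

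FPKM is scaled by transcript length, so levels can also be set side by side between genes. The scaling does not account for a sample's trend on GC content or for reads shared with copies or overlapping genes, which limits this order. RAN was the most abundant of the list in shNC cells at 115 FPKM, well above the next gene, THOC7 (27.1 ± 3.05), with no overlap of their samples. Of the 41 genes, 31 had a mean of 5 to 20 FPKM in shNC cells, and among the 40 pairs of neighbours in the order of levels, only 5 were separate in all samples. NUP35 (2.25) and THOC1 (3.66) were the lowest of the tested genes. Apart from RAN, the summed FPKM of the list was 430, 482 and 469 in the shNC samples and 487, 484 and 499 in the shPQBP1 samples. With RAN it was 535, 612 and 578 against 561, 545 and 552, and the groups overlapped.

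**Figure D4:**
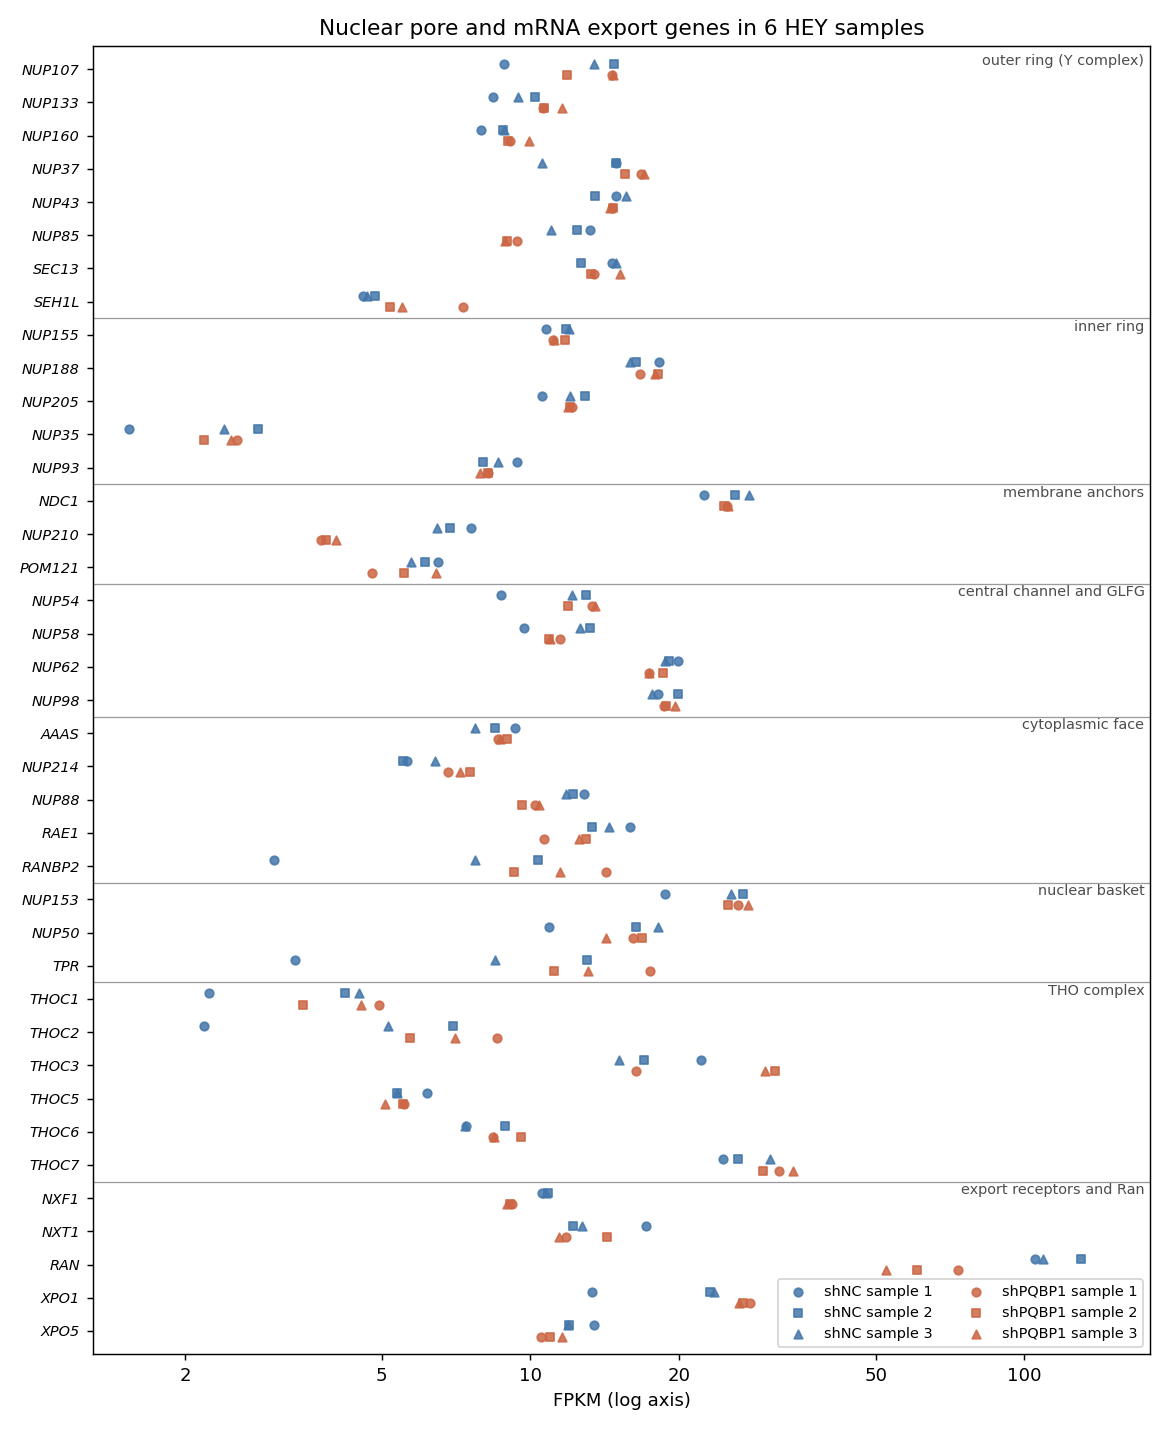
FPKM of the 39 tested genes in each of the 6 samples, on a log axis, with shNC samples in blue and shPQBP1 samples in orange and the sample number given by the marker. RAN lies apart at 52.4 to 130 FPKM, and shNC sample 1 (blue circle) is far to the left for TPR, RANBP2 and THOC2.

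Other genes of the export pathway were read from a list of mRNA export factors, 31 of which were tested. None changed at an adjusted p under 0.05. At an unadjusted p under 0.05 in limma, 5 were lower and 3 higher, 8 in all (25.8%, against 23.6% of all genes tested). ALYREF, the adaptor that hands mRNA to NXF1, had 86.38, 65.48 and 68.51 FPKM in shNC cells and 49.99, 49.84 and 43.84 in shPQBP1 cells (log2 fold change -0.61, limma adjusted p = 0.0597). Over the alternatives the limma adjusted p of ALYREF ran from 0.0159, after the GC and length correction, to 0.21, and with 1 sample left out it ran from 0.045 (without shNC sample 1) to 0.203. DDX39B, the helicase of the same TREX complex, had 30.54, 34.46 and 28.21 FPKM in shNC and 17.84, 20.72 and 26.2 in shPQBP1 samples (log2 fold change -0.54, adjusted p = 0.123 from limma). ALYREF and DDX39B showed no overlap between the groups. The other 3 lower genes were EIF4A3 of the exon junction complex (-0.32), SRRT, a partner of the cap-binding complex (-0.37), and POLDIP3, a further TREX adaptor (-0.43). The 3 higher genes were GLE1, the activator of the export helicase at the cytoplasmic face (0.29), and the centrins CETN2 (0.23) and CETN3 (0.43), both found in the TREX-2 complex. After the GC and length correction, CETN2 (0.10), CETN3 (0.17), POLDIP3 (-0.33) and SRRT (-0.20) no longer passed, DDX39A (0.29) did, and GLE1 and EIF4A3 reached limma adjusted p-values of 0.038 and 0.0477. AHCTF1, which seeds pore assembly on chromatin, had 3.26, 6.14 and 6.68 FPKM in shNC and 7.36, 5.87 and 7.4 in shPQBP1 samples, with shNC sample 1 lowest and a log2 fold change of 0.41, or 0.09 without that sample.

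Of the importins, exportins and cofactors of RAN, 26 were tested. None changed at an adjusted p under 0.05, and 4 were lower and 2 higher at an unadjusted p under 0.05 in limma (23.1%, against 23.6% of all genes tested). Among the lower genes were RCC1, the chromatin-bound exchange factor that loads RAN with GTP, with 20.85, 12.72 and 15.79 FPKM in the shNC samples and 10.73, 11.82 and 10.17 in the shPQBP1 samples, and RANBP1, which helps GTP hydrolysis by RAN, with 31.47, 27.27 and 28.81 against 24.19, 26.03 and 23.88 FPKM. Their log2 fold changes were -0.56 and -0.24 (adjusted p = 0.145 and 0.166 from limma), and neither pair of groups overlapped. The importin alpha genes KPNA2 (-0.27, limma adjusted p = 0.0609, 0.0245 to 0.283 over the alternatives and 0.0461 without shNC sample 1) and KPNA6 (-0.23) were the other lower genes, and XPOT (0.33) and IPO11 (0.42) the higher. Without shNC sample 1 these were 0.20 and 0.25, and after the GC and length correction 0.13 and 0.20. In both fits XPOT and IPO11 stayed at an unadjusted p under 0.05 in limma. KPNB1, the importin beta that carries most of these cargoes, had 71.24, 74.9 and 56.91 FPKM in shNC and 74.04, 58.32 and 76.14 in shPQBP1 samples, and RANGAP1, the GTPase activator of RAN, also overlapped between the groups. Of 13 proliferation genes, 1 passed an unadjusted p under 0.05 in limma (7.69%, against 23.6% of all genes tested), MCM6 with a log2 fold change of 0.22. Their summed FPKM was 590 to 661 in the shNC and 606 to 648 in the shPQBP1 samples. TOP2A (42.81 FPKM) and MKI67 (20.08) were lowest in shNC sample 1, and whether cell division differed was not tested.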

How the data were processed

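The authors mapped paired-end reads to hg38 with HISAT2 (2.2.0), sorted them with SAMtools (1.9) and used StringTie (1.3.0) for transcripts. The deposited FPKM values, which carry 2 decimals, were used without further scaling. The annotation release is not given in the sources used here. The authors' columns of fold changes, p-values and calls from edgeR were not used, so an FPKM test replaces their count test. A search for steps of whole reads in single-exon genes found none (strength 0.152 to 0.186), so depth and counting precision are unknown.

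In limma (version 3.58.1, R 4.3.3), a linear model with empirical Bayes moderation and a trend on mean level was fitted to log2(FPKM + 0.1) wherever mean FPKM reached 1. This pseudocount understates changes of low genes. The p-values set each group difference against the spread between these samples. They do not cover other hairpins, other cell lines or doxycycline alone. Intervals are 95%. Exact tests used scipy (1.17.1). In the rule for members, a P with digits at the end was read as a pseudogene suffix, since NUP98 itself would otherwise be dropped. Members and lists were chosen with earlier results of these data known. Values per sample are given for genes past an unadjusted p of 0.05, for 6 preset genes, and for others that a comparison needed, chosen after their values were seen. Positions, transcript lengths and GC contents come from GENCODE release 44, and upstream sequences from RefSeq, which had 39 of the 41 genes. The fit was tested on simulated data.

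Alternatives were median-of-ratios and quantile scaling, other filters and pseudocounts, no trend, a replicate block, removal of the trend on GC content and length (splines with 5 degrees of freedom), and each sample left out in turn.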

Additional observations from a re-analysis of the deposited data

How the results depend on the processing

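PQBP1, NUP210, RAN, NUP85, NUP88, NXF1, NUP214, NUP98, RANBP2, TPR and XPO1 kept their direction under every alternative in which they were tested, and PQBP1, NUP210, NXF1, NUP214 and RANBP2 were not tested at a mean FPKM of at least 10. Of the 39 members, 8 changed sign without shNC sample 1 (NUP107, NUP43, SEC13, NUP205, NUP35, NUP50, THOC1, THOC5). The number of members at an adjusted p under 0.05 was 2, and it was 1 with all genes above 0 in at least 1 sample or with a mean FPKM of at least 10, and 0 to 1 with 1 sample left out. The number higher at an unadjusted p under 0.05 was 1, and it was 0 under quantile normalization or at a mean FPKM of at least 10, 2 with genes above 0 in at least 1 sample or once GC content and length were corrected for, and 0 to 5 with 1 sample left out. The number lower was 5, and it was 3 at a mean FPKM of at least 10, where 25 members were tested, and 8 after the correction. Of the mRNA export factors, 8 passed, with 5 after the correction and 5 to 9 with 1 sample left out. Of the transport receptors and Ran cycle genes, 6 passed, with 9 after the correction and 1 to 7 when 1 sample was left out. Over all genes tested, 23.6% passed an unadjusted p under 0.05 in either direction in limma. This share was 24.4% under quantile normalization and 13.5% with genes above 0 in at least 1 sample. It was 26.1% at a mean FPKM of at least 10, 27.6% after the correction and 15.6% to 25.8% with 1 sample left out. The median log2 fold change of the members was 0.05 in the main fit. It ran from 0.00 to 0.09 with 1 sample left out and from 0.01 to 0.05 over the other alternatives. The members' median in each sample, a different quantity, had an SD of 0.07 in the group where this was larger. The cause of these shifts was not tested.

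Samples with the same number did not deviate together (correlations of -0.186, -0.138 and -0.011, and 0 of 6 samples correlated best with their own number), so the numbers are not taken as pairs. With the replicate block, 0 members had an adjusted p under 0.05 in limma, as had 0 of all genes (332 without it, 1840 at an unadjusted p under 0.05 with it), 0 members were higher and 3 transport genes passed. The log2 fold change of PQBP1 was -2.04 (adjusted p = 0.0686). With the block and the GC and length correction together, 0 members had an adjusted p under 0.05, 3 were higher, 4 export factors passed, and PQBP1 had -1.86 (adjusted p = 0.0543). Over all genes, 21 were called in that fit, and 21.2% passed an unadjusted p under 0.05 in limma. The correction alone called 938 of all genes. With genes above 0 in at least 1 sample 190 were called, at a mean FPKM of at least 10 211, and with 1 sample left out 30 to 464.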

Other observations

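POM121C, the close copy of POM121, had 4.95, 4.78 and 4.43 FPKM in the shNC samples and 3.61, 4.32 and 4.21 in the shPQBP1 samples, without overlap (log2 fold change -0.22, limma adjusted p = 0.253). NUPL2, the former symbol of NUP42 at the cytoplasmic face, had 4, 5.08 and 4.41 FPKM in shNC and 4.34, 3.78 and 4.64 in shPQBP1 samples, with overlapping groups.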
